A study of Mus musculus with 18 samples.

Results

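The accessory subunits of ISWI chromatin remodelling complexes are described here by their mRNA levels in mouse embryonic stem (ES) cells with and without the ISWI ATPase Snf2h, the product of Smarca5. The 9 genes were taken by symbol from the deposited table of 24116 genes: Baz1a, Baz1b, Baz2a, Baz2b, Bptf, Rsf1, Cecr2, Chrac1 and Pole3. All 9 were in the table and all 9 passed the filter on low counts, which left 14901 genes to be tested. RNA sequencing of polyadenylated RNA gave 18 libraries of 129S6/SvEvTac ES cells grown in serum and LIF: a wild-type add-back, in which the Snf2h ko re-expresses the intact protein (n = 3), a mutant add-back, in which it re-expresses an ATPase mutant (n = 2, replicates 1 and 3), the Snf2h ko itself (n = 5) and wild type (n = 8). The add-back groups therefore both carry the ko. After thawing, cells of the mutant add-back line and of the ko spent at least their first passages on mouse embryonic fibroblast feeders, per the labels, whereas the other groups were kept on gelatin. The labels do not say how many ko or add-back clones were used, what drives the added Snf2h or which residue is mutated. Replicates are called biological but are not tied to separate cultures, so p-values measure the spread between these samples, which may be technical in part.

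ISWI ATPases slide and space nucleosomes, and each works with a partner that sets where and how it acts. Baz1a (ACF1) forms ACF with Snf2h, and CHRAC is ACF joined by the small histone-fold proteins Chrac1 and Pole3. Baz1b (WSTF) forms WICH, which follows replication foci. Baz2a (TIP5) forms NoRC, known for silencing ribosomal DNA repeats, and Baz2b is its paralogue. Bptf is the large scaffold of NURF, Cecr2 that of CERF and Rsf1 that of RSF. In ES cells, Bptf is known to be needed for differentiation of the embryonic germ layers.

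On GRCm38 the RefSeq gene spans are chr12:54892989-55014371 for Baz1a, chr5:135187323-135246131 for Baz1b, chr10:128091370-128129303 for Baz2a, chr2:59899363-60209913 for Baz2b and chr11:107033081-107132147 for Bptf. The other spans are chr7:97579870-97692782 for Rsf1, chr6:120666314-120771191 for Cecr2, chr15:73090412-73094075 for Chrac1 and chr4:62523798-62525014 for Pole3. The 9 genes thus lie on 9 different chromosomes. They differ in size: the deposited exonic lengths are 12788 bases for Bptf, 11129 for Rsf1, 9823 for Baz2a, 9213 for Cecr2, 8412 for Baz2b, 7340 for Baz1b and 6179 for Baz1a, but 2114 for Chrac1 and 739 for Pole3. In the GENCODE M21 annotation, 219 exonic bases of Chrac1 overlap Ago2 on the opposite strand. The strand setting of the counting is not given in the sources used here, so the source of Chrac1 reads in that stretch is uncertain.

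The RefSeq promoter table (GRCm38.p6) held 5 of the 9 genes, and 4 are shown over the 250 bases before the annotated start, on the strand of the gene. Baz1b and Bptf were lower in the ko and higher again with wild-type Snf2h, while Baz2a and Pole3 passed the test in neither comparison. These calls depend on the fit. With a trend by exonic length taken out, Baz1b and Bptf did not pass in the ko (edgeR adjusted p = 0.098 and 0.14). Pole3 then passed as lower (-0.30 on the log2 scale, edgeR adjusted p = 0.0015). Capitals mark CCAAT, the GC box GGGCGG and the E-box CACGTG, and the short CTCF core CAGNNGGC, found on either strand.
Baz1b, chr5:135187073-135187322, forward strand: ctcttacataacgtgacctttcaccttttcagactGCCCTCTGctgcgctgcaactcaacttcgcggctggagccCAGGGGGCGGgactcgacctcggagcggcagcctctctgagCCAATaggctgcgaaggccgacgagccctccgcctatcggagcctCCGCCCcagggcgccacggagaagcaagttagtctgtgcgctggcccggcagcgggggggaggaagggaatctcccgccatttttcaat
Bptf, chr11:107132148-107132397, reverse strand: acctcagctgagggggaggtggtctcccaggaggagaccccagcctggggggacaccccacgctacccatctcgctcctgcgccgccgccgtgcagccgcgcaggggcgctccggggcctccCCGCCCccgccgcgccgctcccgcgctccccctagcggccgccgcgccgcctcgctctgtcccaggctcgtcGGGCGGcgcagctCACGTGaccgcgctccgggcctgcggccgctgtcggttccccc
Baz2a, chr10:128092533-128092782, forward strand: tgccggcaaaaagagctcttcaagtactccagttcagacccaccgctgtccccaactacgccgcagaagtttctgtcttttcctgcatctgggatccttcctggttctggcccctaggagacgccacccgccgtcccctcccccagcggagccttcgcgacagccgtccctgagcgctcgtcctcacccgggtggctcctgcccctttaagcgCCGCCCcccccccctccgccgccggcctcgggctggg
Pole3, chr4:62525015-62525264, reverse strand: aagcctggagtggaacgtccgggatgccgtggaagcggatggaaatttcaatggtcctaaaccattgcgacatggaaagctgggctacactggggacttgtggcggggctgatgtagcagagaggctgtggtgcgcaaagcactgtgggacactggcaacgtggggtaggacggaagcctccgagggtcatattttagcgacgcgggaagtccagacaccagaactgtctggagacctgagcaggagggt
The first transcribed bases of Bptf in this table were not found in a GENCODE M21 transcript, unlike those of the other genes shown. The Baz2a window lies inside the gene span, before a downstream annotated start. The same is true of the Baz2b window, which is not shown (chr2:60125741-60125990, reverse strand). The letters counted below for these genes therefore do not describe the region before the outermost start. The study also profiled CTCF and REST binding, so the CTCF core and the first half-site of the REST element (TTCAGCACC) were among the letters searched on both strands. The CTCF core was found in Baz1b, at 215 and 175 bases before the start, where the second match overlaps a GC box, and in 21.5% of 32851 promoter windows of this length. The REST half-site was in none of the 5 windows, Baz2b included, and is in 0.301% of all. The GC box was present in Baz1b, Bptf and Baz2a and in 32.7% of all windows. CCAAT was present in Baz1b and Baz2b and in 33.8%, and CACGTG was present in Bptf and in 6.02%. The Bptf window has 34 CpG dinucleotides, and 97.0% of all windows have as few or fewer. Baz1b and Baz2a have 20 each, Pole3 has 13 and Baz2b has 4. These matches describe letters in a window and not sites that were shown to be bound.

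The 18 library totals, from 15.3 to 37.0 M counts, fell into 3 depth tiers that the groups do not share evenly. Below 20 M were ko replicates 3 to 5, wild-type replicates 6 to 8 and all add-back libraries. Between 20 and 30 M were ko replicates 1 and 2 and wild-type replicates 1 and 2, and wild-type replicates 3 to 5 were above 30 M. Smarca5, the deleted gene, averaged 9.36 ± 0.59 CPM (counts per 1 M of TMM-scaled library size) in the ko, against 185.1 ± 29.1 CPM in wild type (SD, n = 5 and 8), with no overlap. It reached 83.8, 84.0 and 90.2 CPM in the wild-type add-back and 48.4 and 68.6 CPM in the mutant add-back. Neither add-back thus reached the wild-type range in CPM. Which parts of the transcript the added Snf2h carries is not given, so these CPM may not compare directly with wild type as amounts of mRNA. Every ES cell marker of a list of 10 was present in each group. A list of 22 fibroblast markers summed to 217.5 to 271.0 CPM in ko and mutant add-back libraries, against 79.3 to 124.8 CPM in wild-type add-back and wild-type libraries. Of these 22 markers, 15 to 17 averaged at least 1 CPM in the ko and mutant add-back tiers, against 9 to 12 in the wild-type add-back and wild type. Of the 18 that were tested, 14 were higher and 3 lower in the ko than in wild type. Of all tested genes 26.8% were higher and 28.2% lower in that comparison. Lum was at 0 in the ko and mutant add-back and in the low and middle tiers of wild type. Fap was at 0 in both add-backs and in the low and high tiers of wild type. Postn was at 0 in the wild-type add-back and Twist2 in low-tier wild type. Feeder growth and genotype cannot be told apart in these groups, and the part of fibroblast RNA in the results below was not tested. In bulk RNA, fewer cells that express a gene and less RNA per cell cannot be told apart either.

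Counting error was small for these genes. The lowest count of any of the 9 in any library was 288, which has a counting coefficient of variation of 5.89%.

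Per kilobase of the deposited exonic length (CPM per kb), Baz2a was the most abundant of the 9 mRNAs in wild type, at 63.7 ± 7.40 (SD, n = 8). Pole3 followed at 34.3 ± 3.41 and Baz1b at 31.9 ± 2.52, with overlapping ranges. Bptf stood at 23.6 ± 1.13 and Cecr2 at 17.9 ± 1.72, and the ranges of those 2 genes did not overlap. Baz1a at 10.9 ± 1.04, Rsf1 at 9.76 ± 0.776 and Chrac1 at 9.21 ± 0.991 could not be separated by their ranges. Baz2b was lowest at 4.79 ± 0.404. On the same scale Smarca5 was at 37.1 ± 5.83, which is about the level of Pole3 and well below Baz2a. The place of Pole3 depends on its length: with the GENCODE M21 exonic length of 2040 bases its wild-type level is 12.4 CPM per kb, and Bptf at 21.5 and Baz1b at 17.1 are then above it. Smarca5, at 23.8 with its GENCODE length, is then above Pole3 too. Other places move as well: with those lengths Cecr2 is at 9.66, close to Baz1a at 9.38. Chrac1 is then at 8.27 and Rsf1 at 5.71. Baz2a stays first at 58.3 and Baz2b last at 2.29 with those lengths.

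The BAZ paralogues thus differ widely in level. Per kb, Baz2b had 0.0679 ± 0.00335 times the level of Baz2a in the ko and 0.0756 ± 0.00432 times in wild type (SD, n = 5 and 8). Baz1a had 0.216 ± 0.0177 times the level of Baz1b in the ko, against 0.341 ± 0.0323 times in wild type. The ranges of this ratio, 0.193 to 0.239 in the ko and 0.295 to 0.380 in wild type, did not overlap. The same held for the NURF and CERF scaffolds: Cecr2 had 0.513 ± 0.0236 times the level of Bptf in the ko, against 0.758 ± 0.0650 times in wild type. With wild-type Snf2h returned, the Baz1a ratio was 0.291 ± 0.00874 (n = 3), and with the mutant it was 0.202 ± 0.00923 (n = 2). Pole3 and Chrac1, which form a pair in CHRAC, had a mean per-kb ratio of 3.73 ± 0.376 in the ko and 3.75 ± 0.434 in wild type. It was 3.45 ± 0.262 in the wild-type add-back and 4.06 ± 0.201 in the mutant add-back. The ko and wild-type means join depth tiers. Against wild type the ratio was lower in the low-tier ko and higher in the middle-tier ko. In the low tier, mean Pole3 was 23.0 CPM in the ko and 26.7 in wild type, and Chrac1 was 18.9 and 18.8. In the middle tier, Pole3 was 21.6 and 22.9 CPM, and Chrac1 was 15.1 and 18.3. The size of these ratios rests on the deposited lengths, which scale a ratio alike in all groups. With GENCODE M21 lengths the wild-type levels are 12.4 for Pole3 and 8.27 for Chrac1, and 9.38 for Baz1a and 17.1 for Baz1b. Summed per kb, the 9 mRNAs came to 202.1 ± 12.4 in the wild-type add-back, 162.0 ± 11.2 in the mutant add-back, 176.5 ± 4.42 in the ko and 206.1 ± 10.4 in wild type.

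**Figure D1:**
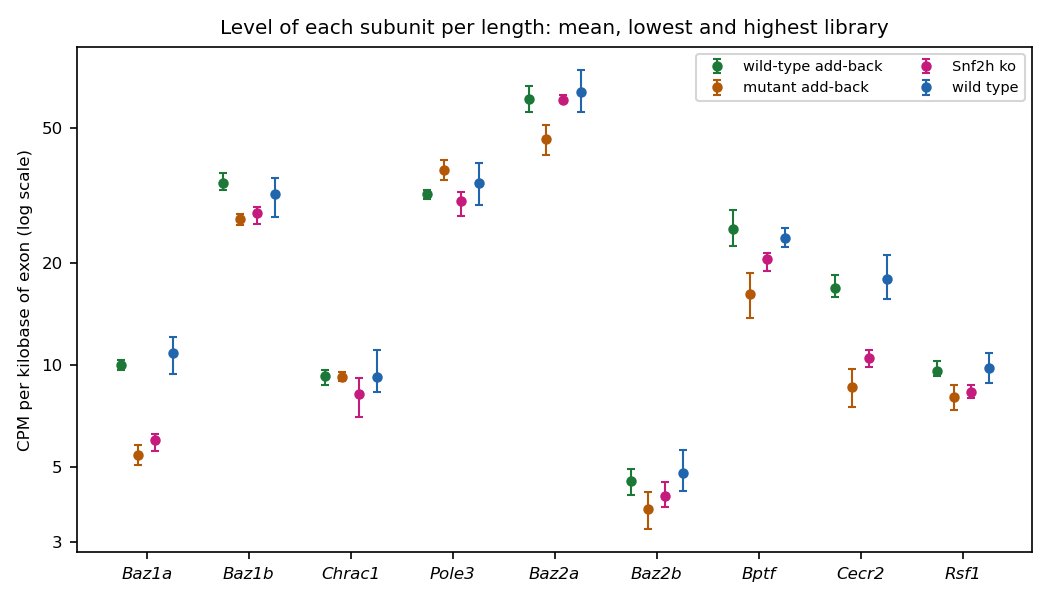
Level of each subunit as CPM per kilobase of deposited exonic length (log axis) in the wild-type add-back, mutant add-back, Snf2h ko and wild type; points are means and bars run from the lowest to the highest library. Baz2a is highest and Baz2b lowest in all 4 groups, and Baz1a and Cecr2 separate into a higher pair of groups (wild-type add-back and wild type) and a lower pair.

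Loss of Snf2h was accompanied by lower mRNA of 6 of the 9 accessory subunits and by higher mRNA of none. The falls were largest for Baz1a and Cecr2, to 0.554 and 0.586 of the wild-type level, and the other 4 that fell (Rsf1, Baz2b, Bptf and Baz1b) were at 0.849 to 0.876 of it. A call means an adjusted p under 0.05 from the edgeR quasi-likelihood test over all tested genes. In this comparison 55.0% of all tested genes were called, 28.2% lower and 26.8% higher, so a call alone sets no gene apart. The median log2 fold change was -0.21 over the 9 genes and -0.01 over all tested genes. In 4 of the 9 genes (Baz1a, Cecr2, Rsf1 and Bptf) the ko libraries all lay below the wild-type libraries, which was so for 15.4% of all tested genes.

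Among the CHRAC subunits, Baz1a had 38.6, 37.5, 38.1, 37.2 and 34.4 CPM in the 5 ko libraries, against a lowest value of 58.0, a median of 68.3 and a highest value of 74.9 CPM in wild type. The ko values were tightly grouped and all were below wild type. The log2 fold change was -0.85 ± 0.07 (SE, adjusted p = 1.8e-08). Its histone-fold partners did not pass the test. Chrac1 averaged 17.4 ± 2.13 CPM in the ko and 19.5 ± 2.09 CPM in wild type (log2 fold change -0.17 ± 0.09, adjusted p = 0.13). Pole3 averaged 22.5 ± 1.34 CPM in the ko and 25.3 ± 2.52 CPM in wild type (-0.17 ± 0.08, adjusted p = 0.068). For both the groups overlapped, and the 95% intervals of -0.35 to 0.01 for Chrac1 and -0.33 to -0.02 for Pole3 leave room for a modest fall.

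Cecr2, the CERF scaffold, had 102.0, 98.7, 96.9, 95.3 and 90.9 CPM in ko libraries, against 144.0, 164.4 and 194.2 CPM as lowest, median and highest in wild type. No ko library came near the wild-type range, and the log2 fold change was -0.77 ± 0.08 (adjusted p = 1.7e-07). The other NURF-type scaffold, Bptf, had 270.6, 265.0, 274.1, 242.3 and 257.5 CPM in the ko, against 284.3, 302.3 and 323.6 CPM in wild type. Its ranges were adjacent but separate, with a log2 fold change of -0.21 ± 0.07 (adjusted p = 0.023). Rsf1 had 90.5, 88.8, 96.8, 94.5 and 90.8 CPM in the ko, against 98.1, 107.2 and 120.4 CPM in wild type. Here too the groups were adjacent without overlap, and the log2 fold change was -0.24 ± 0.07 (adjusted p = 0.0051).

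The WICH subunit Baz1b ranged from 191.4 to 215.0 CPM in the ko and from 199.7 to 260.7 CPM in wild type, where replicate 5 was the only library inside the ko range. Its log2 fold change was -0.19 ± 0.06 (adjusted p = 0.016). Baz2b ranged from 32.0 to 37.9 CPM in the ko and from 35.7 to 47.1 CPM in wild type, with a log2 fold change of -0.22 ± 0.08 (adjusted p = 0.024). Baz2a, the NoRC subunit, ranged from 583.4 to 613.6 CPM in the ko, inside its wild-type range of 545.5 to 727.2 CPM, and was not called (-0.07 ± 0.08, adjusted p = 0.46). The small falls were the fragile ones. Baz1b and Baz2b lost their call without ko replicate 1 (adjusted p = 0.050 and 0.069), Baz2b without ko replicate 2 (0.060) and Bptf without ko replicate 4 (0.067), and Pole3 gained one without wild-type replicate 1 (0.033) or 5 (0.040).

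**Figure D2:**
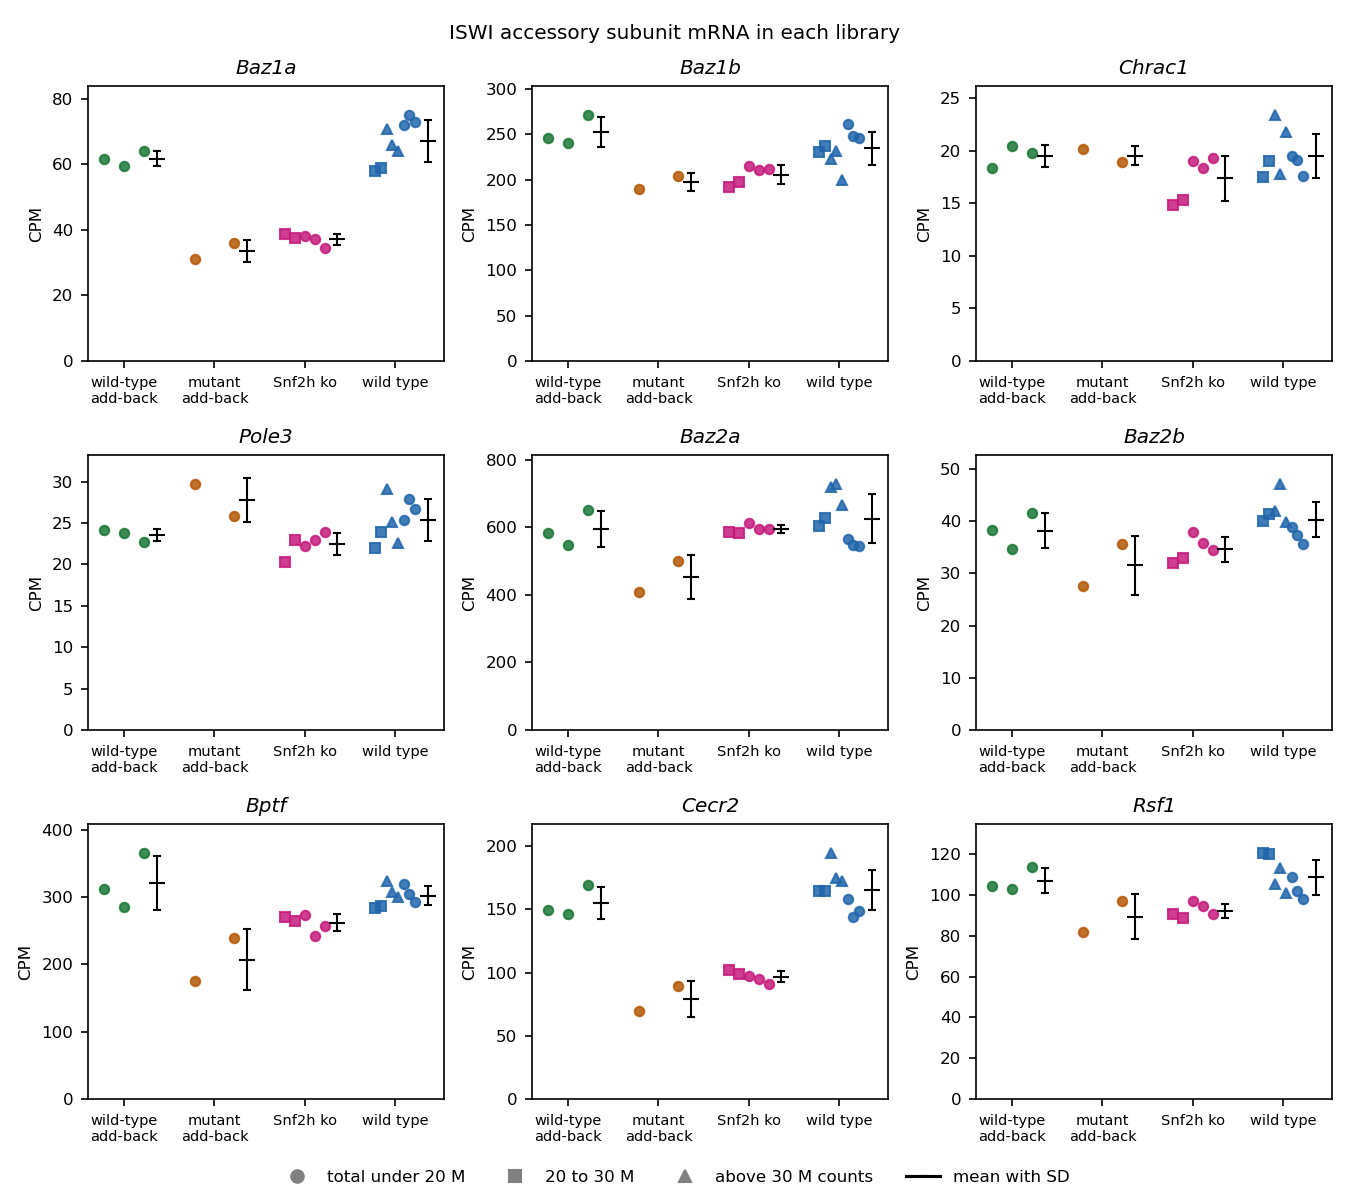
CPM of each subunit in every library of the wild-type add-back, mutant add-back, Snf2h ko and wild type; each y axis starts at 0, symbols give the depth tier, and the black mark and bar are the group mean and SD. For Baz1a and Cecr2 the mutant add-back and ko libraries lie below all wild-type add-back and wild-type libraries, whereas Baz2a, Chrac1 and Pole3 overlap between ko and wild type.

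Returning wild-type Snf2h to the ko was accompanied by higher mRNA of 5 subunits and lower mRNA of none: Baz1a, Cecr2, Baz1b, Bptf and Rsf1. Of all tested genes 45.0% were called in this comparison, 22.5% higher and 22.4% lower. The median log2 fold change was 0.21 over the 9 genes and -0.01 over all. The 5 called genes were also the 5 whose wild-type add-back libraries all exceeded every ko library, as 28.5% of tested genes did.

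Baz1a had 61.6, 59.5 and 64.0 CPM in the wild-type add-back, against 34.4 to 38.6 CPM in the ko (log2 fold change 0.73 ± 0.09, adjusted p = 3.4e-06). Cecr2 had 149.5, 146.5 and 169.3 CPM, against 90.9 to 102.0 CPM in the ko (0.68 ± 0.10, adjusted p = 1.7e-05). These add-back values stand within the wild-type range of each gene. Baz1b, at 246.0, 240.5 and 270.6 CPM against 191.4 to 215.0 CPM in the ko, had a log2 fold change of 0.30 ± 0.08 (adjusted p = 0.0056). Bptf, at 311.9, 285.6 and 364.9 CPM against 242.3 to 274.1 CPM in the ko, had 0.29 ± 0.09 (adjusted p = 0.016). Rsf1, at 104.3, 103.0 and 113.9 CPM against 88.8 to 96.8 CPM in the ko, had 0.21 ± 0.08 (adjusted p = 0.042).

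In the 7 genes over 6000 exonic bases, replicate 3 was the highest of the 3 add-back libraries. Without it Bptf and Rsf1 were no longer called (adjusted p = 0.14 and 0.18) and the count of called subunits was 3. Rsf1 was also lost when any of ko replicates 1, 2, 4 or 5 or add-back replicates 1 or 2 was left out (adjusted p = 0.052 to 0.080). Baz2b (0.14 ± 0.10, adjusted p = 0.27), Chrac1 (0.17 ± 0.12, 0.24), Pole3 (0.07 ± 0.10, 0.61) and Baz2a (0.00 ± 0.10, 0.99) did not pass the test. For Baz2a the 95% interval of -0.20 to 0.20 excludes a change as large as those of Baz1a and Cecr2.

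Set beside wild type, cells with wild-type Snf2h returned passed the test in none of the 9 subunits: 0 were called by edgeR, 0 had an unadjusted p under 0.05 and DESeq2 called 0. In all, 1.60% of tested genes were called here, 1.17% lower and 0.430% higher. The log2 fold changes ran from -0.12 for Baz1a to 0.11 for Baz1b, with standard errors of 0.07 to 0.11. Smarca5 itself was at 0.465 of its wild-type CPM in the same libraries (log2 fold change -1.11 ± 0.13, edgeR adjusted p = 0.00025). The wild-type group spans all 3 depth tiers, and within the low tier Baz1a was lower in the add-back by 0.25 ± 0.06 on the log2 scale (adjusted p = 0.0075), where 22.5% of tested genes were called.

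The ATPase-mutant add-back gave a different picture. Against the ko no subunit passed the edgeR test, and DESeq2 called 1, Baz2a, where it called 2.23% of all tested genes. An unadjusted edgeR p under 0.05 was found for 4 subunits. The share of all tested genes under that unadjusted threshold was not computed, so this count sets no gene apart. Of all tested genes 48, or 0.322%, were called by edgeR after adjustment, 0.208% lower and 0.114% higher. Baz1a had 31.3 and 35.9 CPM in the mutant add-back, against 34.4 to 38.6 CPM in the ko (log2 fold change -0.15 ± 0.11, adjusted p = 0.50). Cecr2 had 69.3 and 89.4 CPM, against 90.9 to 102.0 CPM in the ko (-0.29 ± 0.11, adjusted p = 0.25). Smarca5 was meanwhile 6.25 times its ko level in these libraries. The upper 95% bounds of 0.06 for Baz1a and -0.06 for Cecr2 lie far below the values of 0.73 and 0.68 seen with wild-type Snf2h.

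Of the genes with unadjusted p under 0.05, the long Baz2a, Bptf and Cecr2 were lower and the short Pole3 was higher. Baz2a had 408.4 and 500.5 CPM in the mutant add-back, against 583.4 to 613.6 CPM in the ko (log2 fold change -0.39 ± 0.12, adjusted p = 0.17). Bptf had 175.4 and 238.8 CPM, against 242.3 to 274.1 CPM in the ko (-0.34 ± 0.11, adjusted p = 0.18). Pole3 had 29.6 and 25.9 CPM, against 20.3 to 23.9 CPM in the ko (0.31 ± 0.11, adjusted p = 0.23). Together with Cecr2 these 4 genes had no overlap between the groups, as did 27.9% of tested genes. Without replicate 3 of the mutant add-back, which leaves 1 mutant library, Bptf was at -0.59. Within the low depth tier, where 14.6% of tested genes were called, Baz2a (-0.40 ± 0.08, adjusted p = 0.0019) and Bptf (-0.32 ± 0.10, adjusted p = 0.043) passed the test. In that tier all 12 endoderm markers of a list were higher in the mutant add-back, summing to 4587 to 4736 CPM, against 2626 to 2748 CPM in the ko, and their part in these values was not tested.

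In the direct comparison of the add-backs, 5 subunits had higher mRNA with wild-type Snf2h than with the mutant. These were Cecr2 (log2 fold change 0.97 ± 0.13, adjusted p = 1.3e-05), Baz1a (0.88 ± 0.12, 1.6e-05), Bptf (0.63 ± 0.12, 0.00048), Baz2a (0.39 ± 0.13, 0.024) and Baz1b (0.36 ± 0.10, 0.011). Of all tested genes 37.0% were called, 18.6% higher and 18.4% lower. Baz2b and Rsf1 missed the threshold (adjusted p = 0.10 and 0.060), Chrac1 differed by 0.00 ± 0.15, and Pole3 by -0.24 ± 0.12 (adjusted p = 0.14). Smarca5 CPM was higher with the wild-type construct (0.56 ± 0.17, edgeR adjusted p = 0.018). The add-backs thus differ in Smarca5 CPM and in feeder growth as well as in the ATPase. With mutant replicate 1 left out, which leaves 1 mutant library, Baz1b and Baz2a lost their calls (log2 fold changes 0.32 and 0.26). Baz2a was also lost without wild-type add-back replicate 3 (adjusted p = 0.097). With mutant replicate 3 left out, Baz2b and Rsf1 were at 0.49 and 0.40.

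Against wild type the mutant add-back was lower in 7 subunits, all but Chrac1 and Pole3, where 45.5% of tested genes were called, 23.5% lower and 22.1% higher. Cecr2 was at 0.481 and Baz1a at 0.50 of the wild-type level (log2 fold changes -1.06 ± 0.11 and -1.0 ± 0.11, adjusted p = 9.3e-07 and 7.4e-07). Bptf followed at -0.55 ± 0.11 (adjusted p = 0.00040) and Baz2a at -0.46 ± 0.11 (0.0031). Baz2b (-0.36), Rsf1 (-0.28) and Baz1b (-0.25) were the smallest called falls, with adjusted p of 0.015, 0.018 and 0.029. Without mutant replicate 1, which leaves 1 mutant library, Baz1b, Baz2a, Baz2b and Rsf1 lost their calls (-0.20, -0.33, -0.19 and -0.17). Without mutant replicate 3 Baz1b was lost (-0.31). The comparisons of the ko and of each add-back share libraries, so their fold changes are not independent of one another.

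Exonic length moved with the mutant add-back. Among all tested genes in the comparison with the ko, the median log2 fold change was 0.15 for genes under 2500 exonic bases, -0.04 for those of 2500 to 6000 and -0.23 for those over 6000. The share of all counts in genes over 6000 bases was 18.2% in replicate 1 and 21.1% in replicate 3 of the mutant add-back, and 21.4% to 24.6% in the other 16 libraries. In the 9 genes the same order was seen: the 7 members over 6000 bases had negative log2 fold changes from -0.39 to -0.04, and Chrac1 and Pole3 had positive ones. Between the 2 mutant libraries themselves, replicate 1 was lower than replicate 3 by 0.10 (Baz1b) to 0.45 (Bptf) on the log2 scale in all 7 long genes, and higher by 0.09 in Chrac1 and 0.19 in Pole3. The median over all long genes was -0.19 and over all short genes 0.14. Whether this trend comes from the RNA, the library or the cells was not tested.

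When the trend with length was taken out of every library, Baz1a and Cecr2 were still called in each comparison in which they had been. In the ko versus wild type Baz1a was at -0.83 ± 0.08 and Cecr2 at -0.71 ± 0.06. Between the add-backs they were at 0.74 ± 0.12 and 0.72 ± 0.10, and in the mutant add-back versus wild type at -0.83 ± 0.11 and -0.78 ± 0.09. The mutant add-back and the ko then differed by -0.01 ± 0.11 in Baz1a and by -0.07 ± 0.09 in Cecr2. For Baz2a, Bptf and Pole3 this difference was -0.16 ± 0.10, -0.07 ± 0.10 and 0.05 ± 0.10 (adjusted p = 0.67, 0.85 and 0.91). Within the low tier, where 10.3% of tested genes were then called, Baz2a passed (-0.23 ± 0.05, adjusted p = 0.0072). Bptf did not (-0.13 ± 0.06, adjusted p = 0.23). Most smaller differences lost their call. In the ko, Baz1b (adjusted p = 0.098), Baz2b (0.057) and Bptf (0.14) were no longer called, Rsf1 was (0.033), and Pole3 gained a call as lower (-0.30 ± 0.07, adjusted p = 0.0015). In the wild-type add-back against the ko, Baz1a, Cecr2 and Baz1b were still called. Between the add-backs only Baz1a and Cecr2 were. The Rsf1 and Pole3 differences between the mutant add-back and wild type changed sign, to 0.056 ± 0.080 and -0.25 ± 0.10 (adjusted p = 0.60 and 0.046).

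**Figure D3:**
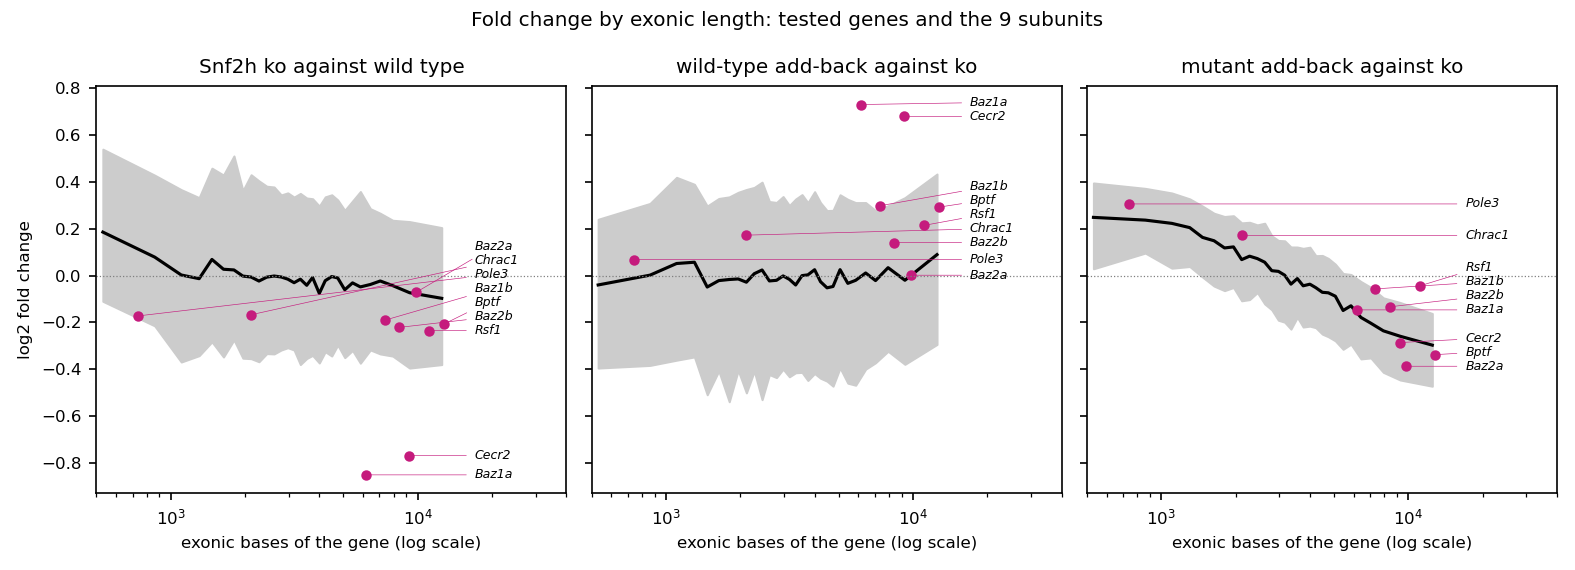
Log2 fold change against exonic length (log axis) for ko versus wild type (left) and for the wild-type (middle) and mutant (right) add-backs versus the ko. The black line is the median and the grey band the quartiles of tested genes in 30 bins of length, and pink points are the 9 subunits. In the right panel the line falls with length, Baz1a, Cecr2, Baz2a and Bptf lie within the band and Rsf1 lies above it, while in the other panels Baz1a and Cecr2 lie outside the band.

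**Figure D4:**
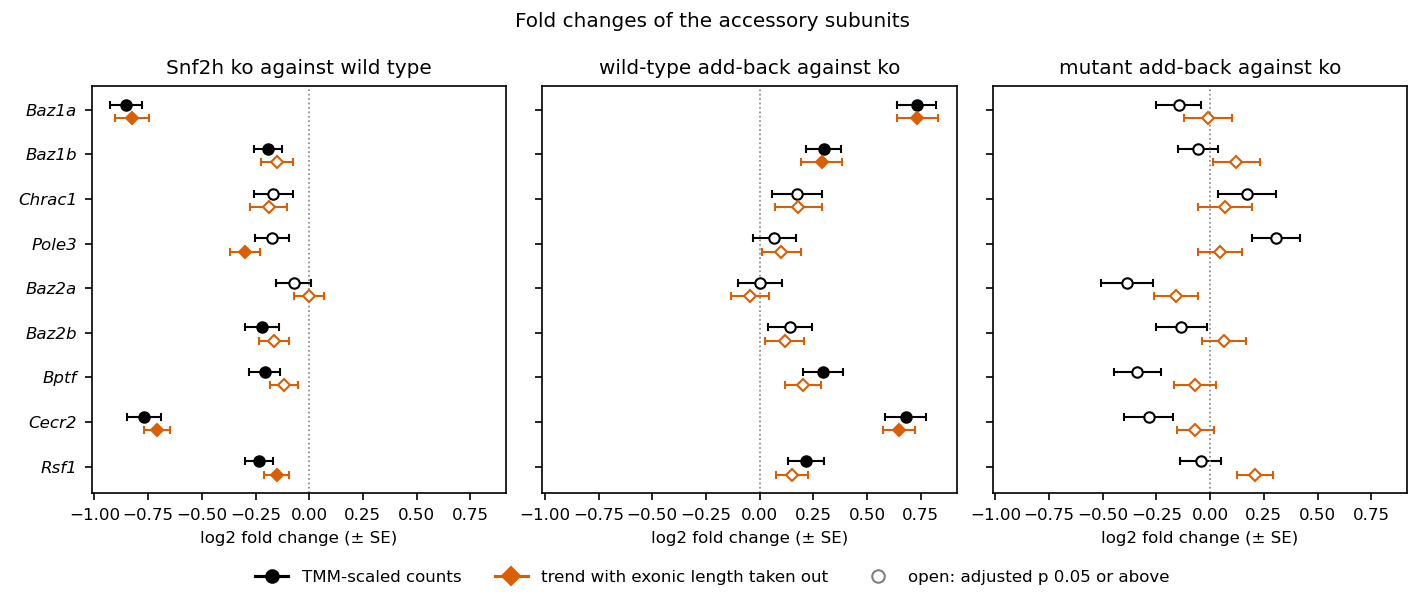
Log2 fold change with SE of each subunit in the same 3 comparisons, as fitted on TMM-scaled counts (black) and with the length trend taken out (orange); open symbols have an adjusted p of 0.05 or above. Baz1a and Cecr2 are at -0.71 to -0.85 in the ko and at 0.65 to 0.73 with wild-type Snf2h under both fits, and no subunit is called with the mutant.

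The depth tiers allowed the ko effect to be measured in separate sets of libraries. Libraries of 1 genotype within the low or middle tier differed little, so the p-values here may not measure the spread between cultures. In the middle tier (2 ko and 2 wild-type libraries) 6 subunits were lower, where 61.8% of tested genes were called and 31.9% were lower: Cecr2 (-0.71 ± 0.09), Baz1a (-0.62 ± 0.08), Rsf1 (-0.42 ± 0.08), Baz2b (-0.33 ± 0.10), Chrac1 (-0.28 ± 0.11) and Baz1b (-0.27 ± 0.07). In the low tier (3 and 3 libraries) 4 were lower, where 60.1% of tested genes were called and 30.8% were lower: Baz1a (-1.0 ± 0.06), Cecr2 (-0.67 ± 0.08), Bptf (-0.24 ± 0.09) and Baz1b (-0.24 ± 0.06). Baz1a, Cecr2 and Baz1b were thus lower in both sets. The tested difference between the sets was beyond the threshold for Baz1a (0.38 ± 0.10, middle minus low, adjusted p = 0.0074) and Rsf1 (-0.29 ± 0.11, adjusted p = 0.045), in a test that called 26.8% of all genes. For Cecr2 it was -0.04 ± 0.12 and for Baz1b -0.02 ± 0.10. For Chrac1, which was 14.8 and 15.3 CPM in the middle-tier ko libraries and 18.3 to 19.4 CPM in the low-tier ones, the difference between tiers did not pass (-0.29 ± 0.15, adjusted p = 0.15).

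Wild type also moved between the sets. Baz1a was 71.9 to 74.9 CPM in low-tier wild type and 58.0 and 59.0 CPM in middle-tier wild type (log2 fold change 0.32 ± 0.07, adjusted p = 0.00091). Its ko values of 34.4 to 38.1 CPM and 37.5 and 38.6 CPM in the same tiers overlapped. Rsf1 was 98.1 to 109.1 CPM in low-tier and 120.1 and 120.4 CPM in middle-tier wild type (-0.22 ± 0.07, adjusted p = 0.020). Of all tested genes 43.5% were called between these wild-type sets, which have the same genotype. Endoderm markers differed strongly between the same sets: their sum was 10324 to 11177 CPM in middle-tier ko and 1964 to 2069 CPM in middle-tier wild type, but 2626 to 2748 CPM in low-tier ko and 3919 to 4001 CPM in low-tier wild type. The part of these cells in the Baz1a and Rsf1 values was not tested.

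**Figure D5:**
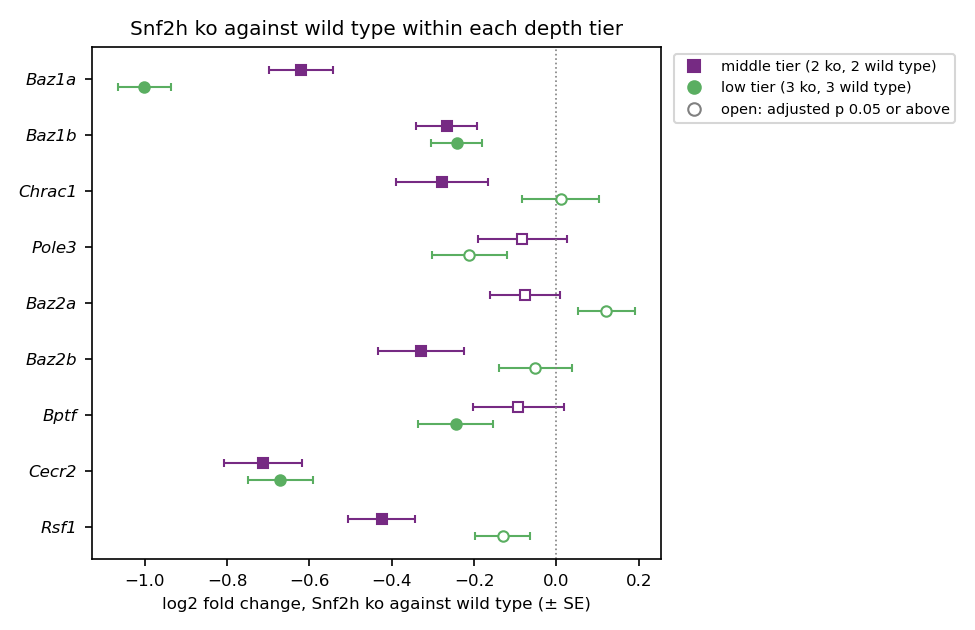
Log2 fold change with SE of each subunit in the Snf2h ko versus wild type within the middle tier (squares, 2 against 2 libraries) and the low tier (circles, 3 against 3); open symbols have an adjusted p of 0.05 or above. Cecr2 and Baz1b have the same size in both tiers, Baz1a is at -0.62 and -1.0, and Rsf1, Baz2b and Chrac1 are called in the middle tier alone.

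Across the 18 libraries Pearson's r of log2 CPM ran from 0.26 (Baz1b and Baz2a) to 0.94 (Baz1a and Cecr2) among the 7 members over 6000 exonic bases. It was 0.86 for Cecr2 and Bptf, 0.86 for Baz2b and Rsf1, 0.83 for Baz2a and Baz2b and 0.47 for Baz1a and Baz2a. Chrac1 was at 0.12 (Baz2a) to 0.33 (Baz1a) with these 7. Between Chrac1 and Pole3 it was 0.50. Pole3 was at 0.21 with Baz1a and at -0.35 with Baz2a. These values describe 18 libraries that share group, depth tier and the length trend, and are given without a test. Among 10486 genes of at least 5 CPM on average, the pattern most like Baz1a was that of Epn2 (r = 0.99), and that most like Cecr2 was Cnot2 (0.99). Taken within groups and tiers, so that differences between them do not enter, these r were 0.51 and 0.69. The length trend also differs between libraries of 1 group and tier, so it still enters these r and the within values below. Its part in them was not tested. For Baz1b the gene was Heatr1 (0.95, and 0.60 within). For Bptf it was the acetyltransferase gene Ep300 (0.98, and 0.96 within), for Rsf1 Phip (0.95 and 0.91), for Baz2a Cit (0.94 and 0.91) and for Baz2b Zc3h13 (0.94 and 0.86). Chrac1 was most like Bub3 (0.90 and 0.82) and Pole3 most like Pmf1 (0.88 and 0.80).

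The rest of the machinery around these subunits was read from lists written from general knowledge. The other ISWI ATPase, Smarca1 (Snf2l), the usual partner of Bptf in NURF, was lower in the ko (18.2 ± 2.23 CPM, against 24.0 ± 2.48 CPM in wild type, log2 fold change -0.40 ± 0.09, adjusted p = 0.00098). It was higher with wild-type Snf2h than in the ko (28.5 ± 2.08 CPM in the add-back, 0.65 ± 0.11, adjusted p = 0.00014) and not called with the mutant over all libraries (15.0 ± 0.184 CPM, -0.28 ± 0.13, adjusted p = 0.33). Within the low tier it was lower with the mutant than in the ko (-0.40 ± 0.09, adjusted p = 0.0051). Its ko effect was -0.81 ± 0.09 in the middle tier and -0.20 ± 0.08 in the low tier, a tested difference of -0.61 ± 0.12 (adjusted p = 0.00055). Smarca5 is the deleted gene, so of the ISWI ATPases only Smarca1 is informative here, and its mRNA was not higher in the ko. Of 4 further NURF and ISWI subunits 1 was lower in the ko and none higher, where 28.2% of tested genes were lower and 26.8% higher. The lower one was Hmgxb4, at -0.64 ± 0.06 in the ko (adjusted p = 4.3e-08) and 0.57 ± 0.07 in the wild-type add-back against the ko. Within the low tier all 4 were called: 3 were lower and 1 higher in the ko than in wild type (60.1% of tested genes were called), and 3 were higher and 1 lower in the wild-type add-back than in the ko (58.6% were called).

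Pole3 also belongs to DNA polymerase epsilon. Of the 3 other subunits of that enzyme, Pole, the catalytic one, was lower in the ko (-0.59 ± 0.07, adjusted p = 1.5e-06) and higher in the wild-type add-back than in the ko (0.52 ± 0.09, adjusted p = 0.00013). Pole2 and Pole4 were not called in the ko, as Pole3 was not. The counts of these lists stand beside 28.2% lower and 26.8% higher over all tested genes in the ko. Of 6 proteins known to join Baz1b in B-WICH, 5 were lower in the ko and 1, Myo1c, was higher (0.71 ± 0.14, adjusted p = 0.00046). The nucleolar proteins Ddx21 (-0.45 ± 0.10) and Mybbp1a (-0.46 ± 0.11) were among the 5, and both were higher with wild-type Snf2h than in the ko (0.65 ± 0.13 and 0.47 ± 0.13). Of 6 genes known to act with Baz2a at ribosomal DNA, 3 were lower in the ko, among them the deacetylase Hdac1 (-0.41 ± 0.09, adjusted p = 0.00056), and none was higher. The maintenance methyltransferase Dnmt1 was one of these (-0.17 ± 0.06, adjusted p = 0.024). With the mutant, where 0.322% of tested genes were called against the ko, no gene of the B-WICH, NoRC, polymerase epsilon or NURF lists was. Within the low tier, where 14.6% were called, 2 NoRC genes were lower, 1 polymerase epsilon gene was higher and 1 lower, 1 NURF gene was higher, and no B-WICH gene was called.

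Of the 9 subunits, Baz1a, Baz1b, Baz2a, Baz2b, Bptf and Cecr2 are known to carry a bromodomain. Among 27 tested bromodomain genes outside ISWI, 15 were lower and 2 higher in the ko, where 28.2% of all tested genes were lower and 26.8% higher. Their median log2 fold change was -0.21, against -0.01 for all genes. That is the same median as for the 9 subunits. Brpf3, a scaffold of histone acetyltransferases, fell most among the 4 with the smallest adjusted p (-1.35 ± 0.13, adjusted p = 8.4e-08), followed by Brd2 (-0.61 ± 0.08), Atad2b (-0.42 ± 0.08) and Pbrm1 (-0.39 ± 0.08). With wild-type Snf2h 8 were higher than in the ko and 3 lower, where 22.5% of all tested genes were higher and 22.4% lower. With the mutant none was called against the ko, where 0.322% of all were. An unadjusted edgeR p under 0.05 was found for 9, and the share of all tested genes under that threshold was not computed. Within the low tier, where 14.6% of all were called, 5 were lower with the mutant and none higher. Among all tested genes over 6000 exonic bases, the length class of 7 of the 9 subunits, 31.8% were lower in the ko.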

How the data were processed

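The values are raw counts of reads per gene, deposited by the authors in a single table with Entrez identifiers, symbols, an exonic length per gene and a column for each library. Per the labels, RNA was column-purified and made into stranded libraries of polyadenylated RNA. Per the submitters' processing notes, bcl2fastq 2.17 and STAR were used, with the mm10 (GRCm38) build. Which tool counted the reads, on which annotation and with which strand setting, is not given in the sources used here.

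Group means were compared in 1 fit of all 18 libraries with edgeR 4.0.16 in R 4.3.3 (TMM scaling, filterByExpr with a count minimum of 10, robust quasi-likelihood test, two-sided), with Benjamini-Hochberg adjustment over 14901 genes in each of 6 comparisons and a threshold of 0.05. Across genes the common biological coefficient of variation came to 0.169. Library sizes for CPM were TMM-scaled, with a prior count of 2 on the log2 scale. The 95% intervals are the log2 fold change with its standard error on a normal scale. A second fit had 1 mean per group and depth tier (library totals under 20 M, 20 to 30 M and above 30 M counts), which may or may not be a technical batch, since the labels name none. The length trend was taken out by an offset per library, a choice made after seeing the data. Of 24116 genes, 3581 had no count and 9 no symbol.

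The chi-square per gene between libraries of 1 group was 1.48 to 40.8 within a depth tier and 31.0 to 69.2 between tiers. Wild-type and ko pairs in the low and middle tiers were at 1.48 to 2.55, and wild-type pairs above 30 M at 15.9 to 40.8. Wild-type add-back pairs were at 2.09 to 6.72 and the mutant add-back pair at 14.0. The libraries compared within the low and middle tiers thus differed little, and their spread may be technical in large part. No pair agreed within sampling noise, so none was merged as a repeat deposit of 1 library; this does not show that they came from separate cultures. The pipeline was tested on simulated counts. The members and gene lists were chosen with earlier results of these data known. The 9 members are always named. From each other list up to 4 genes per comparison with the smallest adjusted p could be named, and for likeness the genes with the highest correlation. Alternatives were another scaling, other filters, DESeq2 1.42.0, fewer libraries, a tier term, a replicate block and the length offset. Levels per kb rest on the deposited lengths. Gene spans and promoters are from RefSeq (GRCm38.p6), overlaps and alternative lengths from GENCODE M21, and figures were drawn in matplotlib 3.10.9.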

Additional observations from a re-analysis of the deposited data

Results flagged for a closer look

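The effect of the ko on Baz1a differed between the depth tiers. It was -0.62 in the middle tier and -1.0 in the low tier on the log2 scale, and the tested difference was 0.38 ± 0.10 (middle minus low, edgeR adjusted p = 0.0074). All 5 ko libraries were below all wild-type libraries of both tiers. The 2 middle-tier wild-type libraries, at 58.0 and 59.0 CPM, were below the 3 low-tier ones, at 71.9 to 74.9 CPM.

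The effect on Rsf1 also differed between the tiers, at -0.42 in the middle tier, where it was called, and -0.13 in the low tier, where it was not. The tested difference was -0.29 ± 0.11 (edgeR adjusted p = 0.045). It did not pass when any of wild-type replicates 1, 2, 7 or 8 or any of the 5 ko libraries was left out (adjusted p = 0.059 to 0.14), or with DESeq2 size factors (0.051).

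Smarca1, the other ISWI ATPase gene, had a ko effect of -0.81 in the middle tier and -0.20 in the low tier, and the tested difference was -0.61 ± 0.12 (edgeR adjusted p = 0.00055). Both tiers passed the threshold in the same direction.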

How the results depend on the processing

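Of the log2 fold changes of the 9 subunits under all alternatives, 1304 kept their direction and side of the threshold or were called in neither fit, 74 lost their call, 29 gained one and 6 changed sign. In 72 of the values called in neither fit the sign changed. Baz1a and Cecr2 were called in ko versus wild type, in the wild-type add-back versus ko, between the add-backs, and in the mutant add-back versus wild type under each alternative run. Counts of called subunits that moved by more than 1.5 times were as follows, each with the share of all tested genes called by the same fit. With library size alone, ko versus wild type had 3 (55.2%) and the wild-type add-back versus ko 3 (45.2%). The mutant add-back versus ko had 1 with the tier as an added term (3.22%) and 1 with DESeq2 (2.23%). Within the low tier the mutant add-back versus ko had 2 (14.6%), wild-type versus mutant add-back 8, of which 7 were higher and 1 lower (60.6%), and wild-type add-back versus wild type 1 (22.5%). With the length trend taken out the wild-type add-back versus ko had 3 (46.2%), wild-type versus mutant add-back 2 (35.0%), and mutant add-back versus wild type 3 (42.3%). With both, the mutant add-back versus ko had 1 (10.3%) and wild-type add-back versus wild type 2 (25.5%). The difference between tiers had 1 with DESeq2 size factors (26.6%). The cause of these moves was not tested.

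Values that changed sign did so with the length trend taken out. In mutant add-back versus wild type, Rsf1 was then at 0.056 over all libraries and 0.055 within the low tier, and Pole3 at -0.25 and -0.29. Within the low tier Baz2a was at 0.18 in ko versus wild type and at -0.12 in the wild-type add-back versus ko (edgeR adjusted p = 0.0028 and 0.037). In that fit Baz2a was thus called higher in the ko and lower with wild-type Snf2h, where 62.0% and 60.1% of tested genes were called. The cause was not tested.

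Leaving out 1 library at a time gave 4 to 7 called subunits for ko versus wild type, where 7425 to 8247 genes in all were called. For the wild-type add-back versus ko it gave 3 to 5, with 5271 to 6519 genes called. In the wild-type add-back versus wild type it gave 0 in each case, with 44 to 260 genes called. Some fits of the mutant add-back and of the tiers were left with 1 library in a group, so no count is given for these. A lone mutant library was assumed to vary like the other groups.

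Groups share replicate numbers, but deviations of same-numbered libraries correlated at -0.20 to 0.27 between ko and wild type, at -0.05 to -0.02 between the wild-type add-back and the ko and at -0.01 to 0.02 between that add-back and wild type. With 2 pairs each, the mutant add-back gave -0.09 with the ko, -0.05 with wild type and 0.14 with the wild-type add-back. Of the 5 ko libraries 1 correlated best with its own number, of the 3 wild-type add-back libraries none did with the ko and 1 with wild type. Between the add-backs both pairs did, but 2 pairs are too few to decide, so the numbers were not taken to pair samples. With the replicate block the wild-type add-back versus ko had 3 called subunits (46.7% of all tested genes called), wild-type versus mutant add-back 8, 7 higher and 1 lower (65.3%), and mutant add-back versus wild type 4 (38.2%), while ko versus wild type had 5 (50.1%).

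The lowest count, 288, is one of Chrac1, and the mutant add-back has 2 libraries. Genotype, feeder growth and line cannot be told apart.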
